A study of Mus musculus with 9 samples.

Results

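Apln and Aplnr, the genes of the peptide apelin and its receptor, were read from bulk RNA-Seq of the mouse retina as the rows of the count table with those gene names, 2 of its 54532 genes. They were chosen by their values against control in these mice, since Apln had among the largest rises there and both genes stand in the study's set of genes upregulated in oxygen-induced retinopathy (OIR) in the same animals. Their values against control are therefore a description with no test. The comparison of inhibitor with vehicle was taken as not used in the choice, though it shares the OIR mice with a comparison that was. The 9 retinas came from wild-type C57BL/6 animals aged P17, and each of the 3 groups held 3 mice. Control mice were raised in room air, and their labels give DMSO. In the OIR model, pups breathe high oxygen, which removes retinal capillaries, and their return to room air at P12 leaves the retina ischemic and leads to retinal neovascularization (NV). OIR mice received vehicle (DMSO) and treated OIR mice received 1 intraocular injection of 32-134D at P12, a compound that inhibits both HIF-1 and HIF-2 (hypoxia-inducible factors), at 70 ng in the sample characteristics and 70 ng/μL in the protocol. All 3 groups share genotype, strain, age, and tissue, and each sample is 1 mouse. Each mouse keeps its label number, so the control mice are 1, 6, and 7, the OIR mice 3, 5, and 6, and those treated with the inhibitor 2, 5, and 10.

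Apelin is made as a precursor that is secreted and cleaved to short peptides, and it acts on a G protein–coupled receptor of the endothelium. In the growing retinal vasculature apelin is a known product of the endothelial tip cells that lead sprouts, and the receptor is found on the endothelium behind them and on veins. Apln is also a known target of HIF-1 in hypoxic cells, and mice without apelin have delayed growth of retinal vessels. Apela encodes a second peptide ligand of the same receptor.

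Apln (ENSMUSG00000037010) lies on the minus strand of chromosome X, from 48025146 to 48034853 on GRCm38, and has 1 annotated transcript of 3 exons and 3149 bases. Aplnr (ENSMUSG00000044338) lies on the plus strand of chromosome 2, from 85136225 to 85139923, and its main transcript is a single exon of 3699 bases with a coding sequence of 377 codons. Neither gene overlaps another annotated gene, so their counts do not depend on strand at such a place. The coding sequence of Apln, from exons 1 and 2 (chrX:48028299-48034505, minus strand, GENCODE M21 transcript), is printed to show where the active peptide lies in the message that was counted. It has 77 codons before the stop, and capitals mark the 39 bases of the last 13 codons, which encode apelin-13, the C-terminal peptide that binds the receptor.
Apln coding sequence: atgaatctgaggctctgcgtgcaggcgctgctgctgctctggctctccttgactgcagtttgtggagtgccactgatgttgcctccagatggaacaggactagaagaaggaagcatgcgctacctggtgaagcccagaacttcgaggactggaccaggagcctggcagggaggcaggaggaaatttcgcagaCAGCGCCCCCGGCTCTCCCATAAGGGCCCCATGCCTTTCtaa
Most of the Apln transcript, 2918 of 3149 bases, is untranslated, so the bulk of its reads can come from outside this stretch.

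Total counts were between 16028731 and 27213184 per mouse, and rod genes were detected in every retina (6 of 6 markers in all 9 mice, summed at 34011 to 65547 CPM, the count scaled to a common library size). Treated OIR mouse 2 and OIR mouse 6 stood apart from their groups. Treated OIR mouse 2 had 15.8% of its counts in crystallin genes, against at most 0.184% in any other mouse. Its mean log2 CPM over 7 retinal ganglion cell markers was 2.33, against 6.84 and 6.93 in the other treated OIR mice. In OIR mouse 6 this score was 3.69, against 5.37 and 6.12 in the other OIR mice. These same mice had the lowest endothelial scores, 2.15 in OIR mouse 6 and 2.61 in treated OIR mouse 2, where the score is the mean log2 CPM over 12 endothelial markers and was 3.28 to 4.26 in the other 7 mice. Values without them are given for the members and for the lists of apelin pathway, tip cell, HIF target, and endothelial genes. The other marker lists and the arterial and venous genes are given with these mice included only. In whole retina, a change in the number of cells that express a gene cannot be told apart from a change in RNA per cell.

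Apln was low in control retinas and high in both OIR groups. Control mouse 1 had 226 counts of Apln (log2 CPM 3.0), mouse 6 had 62 (1.67), and mouse 7 had 123 (3.01). OIR mouse 3 had 1139 counts (log2 CPM 5.93), mouse 5 had 737 (5.11), and mouse 6 had 1043 (5.56). Treated OIR mouse 2 had 2004 counts (log2 CPM 6.99), mouse 5 had 1090 (6.06), and mouse 10 had 1321 (6.09). No 2 groups overlapped, and the order was control, OIR, treated OIR. The same held upward for 15.9% of 17540 genes in OIR against control, 12.8% in treated OIR against control, and 3.74% in treated OIR against OIR. Mean Apln was 6.30 ± 2.79 CPM (SD, n = 3) without OIR, 47.4 ± 13.3 CPM (SD, n = 3) with OIR and vehicle, and 87.3 ± 34.5 CPM (SD, n = 3) with OIR and inhibitor. Over control, the fitted log2 fold change was 2.91 (standard error 0.41) with vehicle, and with inhibitor it was 3.79 (standard error 0.42). By fold change Apln ranked 12th of 17540 genes in the first comparison and 39th in the second, which use the same control mice.

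Aplnr varied far more among OIR mice than Apln did. Control mouse 1 had 233 counts of Aplnr (log2 CPM 3.04), mouse 6 had 137 (2.78), and mouse 7 had 84 (2.46). OIR mouse 3 had 541 counts (log2 CPM 4.86) and mouse 5 had 425 (4.32), while mouse 6 had 146 (2.74). Treated OIR mouse 5 had 620 counts (log2 CPM 5.25) and mouse 10 had 851 (5.45), while mouse 2 had 72 (2.22). OIR mouse 6 was thus within the control range and treated OIR mouse 2 below it, and the other 4 mice with OIR were above every control mouse. Among controls the SD of Aplnr log2 CPM was 0.29, among OIR mice 1.10, and among those given the inhibitor 1.81, where Apln had 0.77, 0.41, and 0.53 (n = 3 each). The fitted log2 fold change of Aplnr over control was 1.43 (standard error 0.74) with vehicle and 2.08 (standard error 0.75) with inhibitor. Without OIR mouse 6 and treated OIR mouse 2 these values were 1.84 (standard error 0.22) and 2.58 (standard error 0.22).

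**Figure D1:**
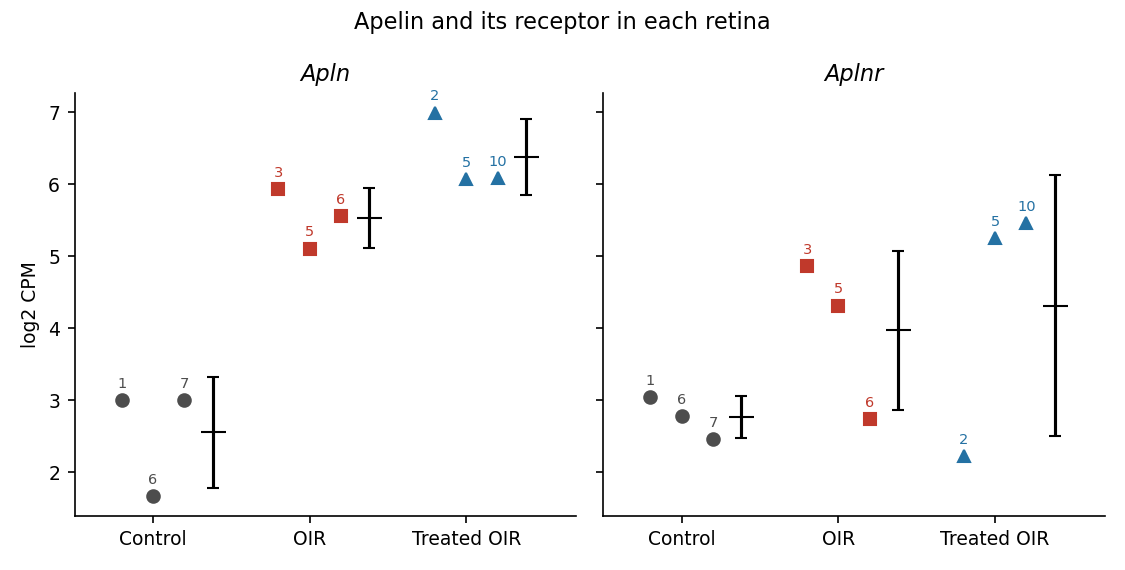
Log2 CPM of Apln (left) and Aplnr (right) in each of the 9 retinas, with 1 point per mouse numbered by its label and bars for the mean ± SD of 3 mice. Apln reached at most 3.01 without OIR, lay between 5.11 and 5.93 with vehicle, and was at least 6.06 with inhibitor, whereas OIR mouse 6 and treated OIR mouse 2 had Aplnr values of 2.74 and 2.22, near the control values of 2.46 to 3.04.

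Under the rule for a differentially expressed gene (in edgeR, an adjusted p under 0.05 together with a log2 fold change beyond 1 in either direction), 1 of the 2 members, Apln, was called in OIR mice against control, where 0.302% of 17540 genes were called, and Apln was also the 1 of 2 called in treated OIR mice against control, where 0.0171% were. With sex as a covariate, or without any of 7 of the 9 mice, neither member was called in either comparison. Those fits called 0 of all genes, except for 2 in treated OIR against control without OIR mouse 6. Without OIR mouse 6 and treated OIR mouse 2 together, both members were called in both, where 590 and 22 of all genes were called. Those mice had the lowest Aplnr among the mice with OIR. These comparisons chose the members, and the counts are given as a description only.

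The comparison of treated OIR with OIR mice asks whether the HIF inhibitor changed either gene, and neither passed the test. For Apln the log2 fold change was 0.88 (standard error 0.37, 95% interval 0.04 to 1.73), higher in treated OIR mice, with an unadjusted p of 0.0428 and an adjusted p of 0.9998 in edgeR's quasi-likelihood test. The gap between the lowest treated OIR mouse, at 6.06, and the highest OIR mouse, at 5.93, was small. A two-sided exact permutation test on the log2 CPM gave p = 0.1, the smallest that 3 mice against 3 allow. For Aplnr the log2 fold change was 0.65 (standard error 0.72, 95% interval -0.98 to 2.27), with an adjusted p of 0.9998 in edgeR and an exact permutation p of 0.7. The interval for Aplnr spans both a fall and a rise. Of all 17540 genes, 0 (0%) were called in this comparison by edgeR, and 823 (4.69%) had an unadjusted p below 0.05. DESeq2 called 14 genes on all 9 mice and 52 on the 6 mice compared, and neither member was among them (DESeq2 adjusted p of 0.703 and 0.417 for Apln, 0.9997 and 0.99995 for Aplnr). Marker genes of other cells also differed in value between these groups, though none was called. All 6 microglial markers had lower values in treated OIR mice (median -1.16, 4 with an unadjusted p below 0.05), with sums of 125 to 226 CPM in OIR and 71.6 to 75.4 CPM in treated OIR mice. All 5 blood genes had higher values (median 1.57, 4 with an unadjusted p below 0.05), with overlapping sums of 9.45 to 58.1 and 53.8 to 169 CPM. Of all genes, 2.39% were higher and 2.30% lower at such a p. Lens genes (8 of 8 tested) and amacrine markers (2 of 6) were also higher at this p. In both lists 0 genes separated the groups without overlap. The mean log2 CPM of lens genes was 12.2 in treated OIR mouse 2, 3.995 in mouse 5, and -0.44 in mouse 10. OIR mice had 1.20 to 4.89, so only treated OIR mouse 2 was above them. For amacrine markers it was 4.11, 4.93, and 6.29 in these treated OIR mice, against 3.92 to 4.61 in OIR mice. Bipolar (3 of 5) and Müller glial markers (2 of 6) were lower at this p. All 7 ganglion cell markers had higher values, 0 at this p. The part of these cells in the values of Apln and Aplnr was not tested.

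When both mice that stood apart were left out, treated OIR exceeded OIR mice on the log2 scale by 0.50 (standard error 0.38, edgeR adjusted p = 0.865) for Apln and 0.75 (standard error 0.23, edgeR adjusted p = 0.372) for Aplnr. With treated OIR mouse 2 alone left out, the values were 0.53 for Apln and 1.18 for Aplnr. Apln is X-linked and the groups differ in sex, with 1 female control, 1 female OIR mouse, and 2 female treated OIR mice by their Xist and Y chromosome counts. The OIR mean of Apln log2 CPM exceeded the control mean by 2.93 among females and by 2.995 among males. The treated OIR mean of Apln exceeded the OIR mean by 0.60 among females and 0.76 among males. For Aplnr the same difference was -1.12 among females, the sex of treated OIR mouse 2, and 1.93 among males, in which OIR mouse 6 falls.

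Scaled by gene length, apelin and its receptor were at about the same level in control retinas and apart in OIR. In CPM per kilobase, Apln was 2.0 ± 0.89 (SD, n = 3) and Aplnr 1.83 ± 0.37 (SD, n = 3) in control mice. In OIR mice Apln was 15.05 ± 4.22 (SD, n = 3) and Aplnr 4.98 ± 3.04 (SD, n = 3), and in treated OIR mice they were 27.7 ± 11.0 (SD, n = 3) and 7.78 ± 5.72 (SD, n = 3). The log2 ratio of Apln to Aplnr per kilobase was 0.19 in control mouse 1, -0.89 in mouse 6, and 0.77 in mouse 7. In OIR mouse 3 it was 1.30, in mouse 5 it was 1.02, and in mouse 6 it was 3.05. With inhibitor, mouse 2 had a ratio of 5.0, mouse 5 had 1.04, and mouse 10 had 0.87. All 6 mice with OIR were above every control mouse in this ratio. The comparison with control chose these genes, so this separation is a description, and its share over other gene pairs was not computed. The 2 highest ratios were in the mice with the lowest endothelial scores, which also had the lowest Aplnr among mice with OIR. Between treated OIR and OIR mice the mean ratio differed by 0.51 (two-sided exact permutation test, p = 0.9), and by -0.84 without treated OIR mouse 2.

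The second ligand, Apela (ENSMUSG00000079042, chromosome 8, 65028417 to 65037336), did not share the pattern of Apln. Per kilobase it was above Apln in all 3 control mice, at 5.25 against 2.51 CPM in mouse 1, 3.40 against 0.98 in mouse 6, and 5.72 against 2.52 in mouse 7. In the 6 mice with OIR it was 1.61 to 4.53 CPM per kilobase, and Apln, at 10.9 to 40.4, was above it in every one. In OIR against control its log2 fold change was -0.50, with a standard error of 0.42 and an edgeR adjusted p of 0.507, and it was -0.29 (standard error 0.43, edgeR adjusted p = 0.9998) in treated OIR against OIR mice. Apela overlaps the transcript Gm45886 on the same strand, so part of its counts is uncertain.

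In each OIR group the mouse with the lowest endothelial score also had the lowest Aplnr. OIR mouse 3 had an endothelial score of 3.95 with Aplnr at 4.86, mouse 5 a score of 3.34 with Aplnr at 4.32, and mouse 6 a score of 2.15 with Aplnr at 2.74. Mouse 5 of the inhibitor group had a score of 4.26 with Aplnr at 5.25, mouse 10 a score of 4.16 with Aplnr at 5.45, and mouse 2 a score of 2.61 with Aplnr at 2.22. Control mice had scores of 3.28 to 3.42, above those of OIR mouse 6 and treated OIR mouse 2, with Aplnr at 2.46 to 3.04. Summed over the 12 markers, endothelial genes reached 162 to 189 CPM in controls, 88.1 to 274 CPM with vehicle, and 105 to 341 CPM with inhibitor, and all 12 had counts in every mouse. Their part in the Aplnr values was not tested beyond the difference that follows.

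Aplnr log2 CPM less the endothelial score was -0.33 in control mouse 1, -0.49 in mouse 6, and -0.95 in mouse 7, while OIR mouse 3 was at 0.91, mouse 5 at 0.98, and mouse 6 at 0.59. On this scale the SD was 0.21 in place of 1.10 among OIR mice, 0.90 in place of 1.81 among treated OIR mice, and 0.33 in place of 0.29 among control mice. In the inhibitor group mouse 2 was at -0.39, mouse 5 at 0.997, and mouse 10 at 1.29, so mouse 2 was within the control range and the other 2 were above every OIR mouse. Treated OIR less OIR, the mean difference was -0.19 (exact permutation test, two-sided, p = 1). Without treated OIR mouse 2 it was 0.32.

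Apln did not follow the endothelial score. In both OIR groups its SD was smaller less a score of HIF targets than less the endothelial score, but the endothelial score itself also varied more. Less the endothelial score, Apln lay between -1.61 and -0.37 in controls, between 1.77 and 3.41 with vehicle, and between 1.81 and 4.38 with inhibitor. Its SD was 0.89 in place of 0.41 among OIR mice and 1.45 in place of 0.53 among those given the inhibitor. The highest values were those of OIR mouse 6 and treated OIR mouse 2, which had the fewest endothelial transcripts. The inhibitor group exceeded the vehicle group by 0.32 on this scale (exact permutation test, two-sided, p = 0.8), and the difference was -0.52 without treated OIR mouse 2. A score over 15 HIF targets, which does not include Apln, was 5.73 to 5.84 in control mice. OIR mouse 3 was at 6.53, mouse 5 at 6.37, and mouse 6 at 6.85, and treated OIR mouse 2 was at 7.88, mouse 5 at 6.56, and mouse 10 at 6.39. Less this score, Apln had an SD of 0.39 in OIR and 0.30 in treated OIR mice. Treated OIR mouse 2 had the highest Apln and the highest HIF target score, and lens genes were summed at up to 100599 CPM in its group and at most 733 CPM in the others, whose part in these values was not tested.

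**Figure D2:**
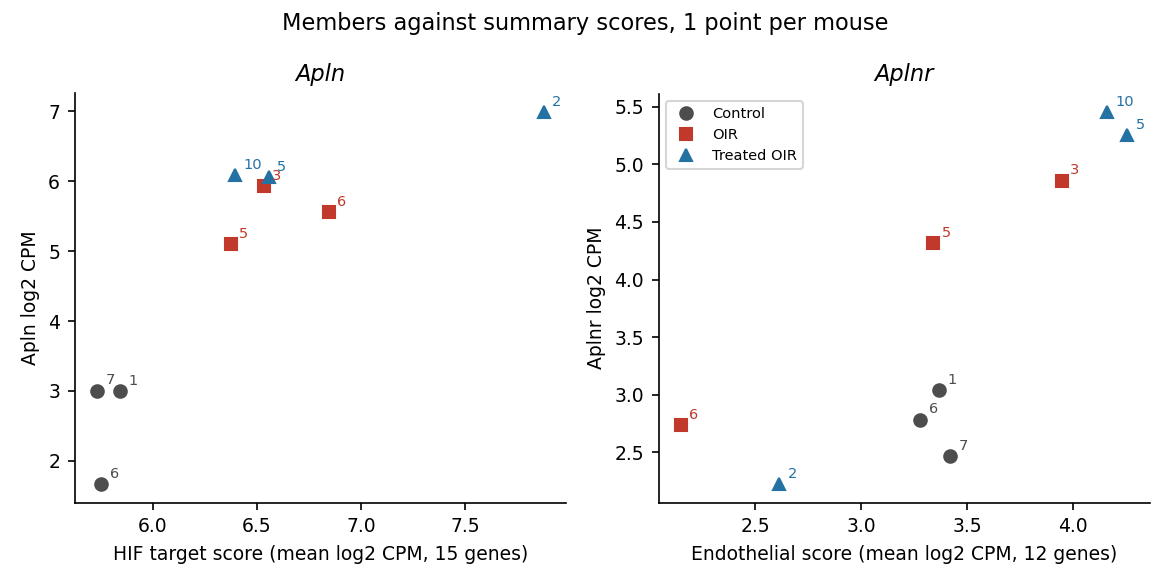
Left, Apln log2 CPM against the HIF target score, and right, Aplnr log2 CPM against the endothelial score, with 1 point per mouse, the group given by color and shape and the mouse by its number. Treated OIR mouse 2 is at the top of the left panel, at 6.99, and at the bottom of the right panel, at 2.22. On the right, control mice fall below OIR mouse 5, the only mouse with OIR of like endothelial score.

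The genes with the profile closest to each member were ranked over 13977 genes by the root mean square difference in log2 CPM over the 9 mice, with each gene centred on its control mean. For Apln they were Adm (0.67), Ndufa4l2 (0.82), Cdh23 (0.98), Stc2 (1.25), and Egln3 (1.25). Adm encodes the vasodilator adrenomedullin, Ndufa4l2 a mitochondrial protein induced by HIF-1, Stc2 a secreted stanniocalcin, Egln3 an oxygen-sensing prolyl hydroxylase of HIF, and Cdh23 a cadherin of sensory cells. All 5 had their highest value in treated OIR mouse 2, as did Apln. In mice 5 and 10 of the treated group, Apln was 3.51 and 3.53 above its control mean, against 3.25 and 2.33 for Adm and 2.51 and 2.20 for Ndufa4l2. For Aplnr the closest genes were Cd93 (0.45), Pcdh12 (0.57), Tie1 (0.63), Ackr2 (0.69), and Itih5 (0.69). Cd93 encodes an endothelial transmembrane receptor, Pcdh12 an endothelial protocadherin, Tie1 an endothelial receptor tyrosine kinase that is also 1 of the 12 markers in the score, Ackr2 a chemokine-scavenging receptor, and Itih5 a hyaluronan-binding matrix protein. The measure includes the difference from control that chose the members, so the ranking is a description. Adm overlaps Gm28863, Ndufa4l2 overlaps Shmt2, and Cdh23 overlaps Vsir and Gm17455, and reads there may have been split if strand was not used.

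**Figure D3:**
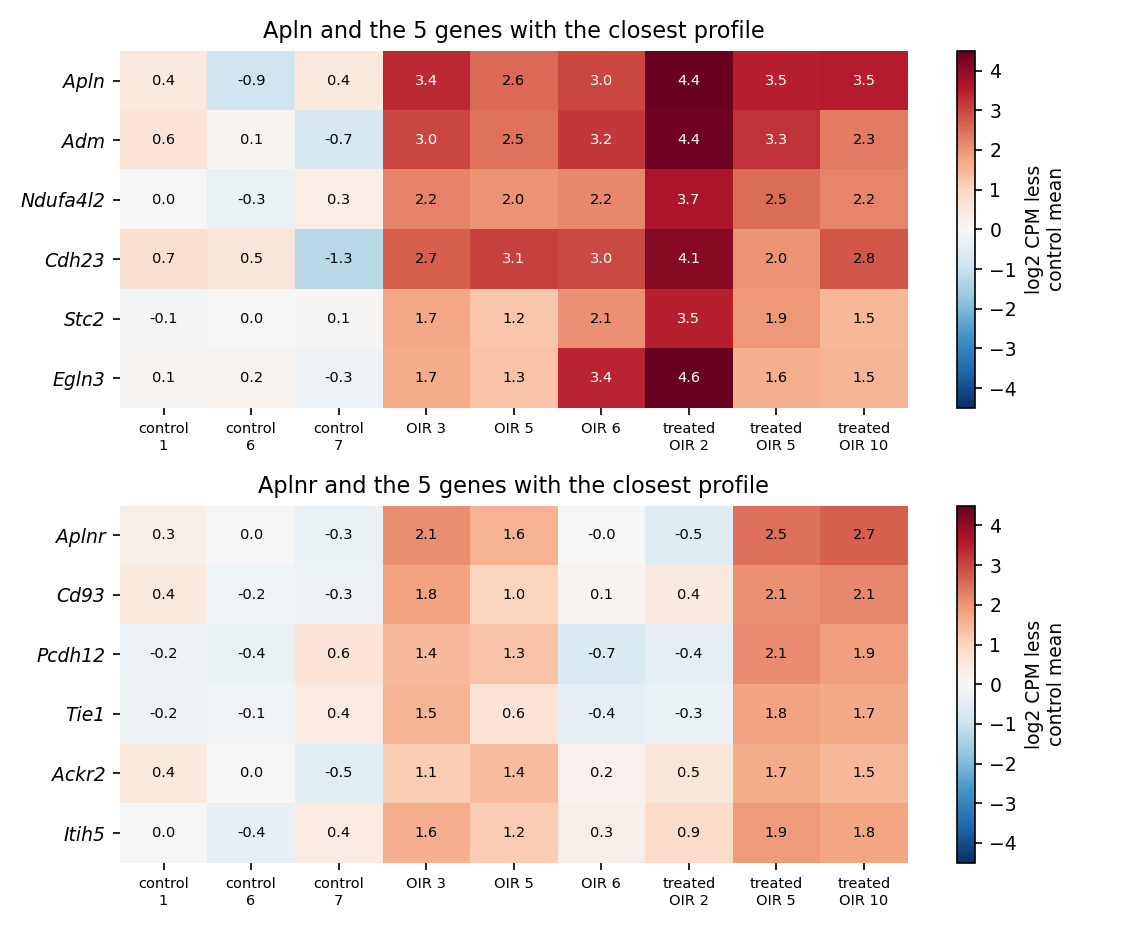
Log2 CPM less the control mean in each of the 9 mice (columns) for Apln and its 5 closest genes (top) and for Aplnr and its 5 closest genes (bottom), shown by color. In the top rows all 6 mice with OIR are at least 1.24 above the control mean, and in the bottom rows OIR mouse 6 and treated OIR mouse 2 lie between -0.65 and 0.87.

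The 250 bases before the annotated start of Apln (chrX:48034854-48035103, GRCm38.p6, minus strand, RefSeq) are printed because HIF targets were among the genes closest to Apln. Both strands were searched for ACGTG and GCGTG, the core letters bound by HIF, and for GGGCGG, the GC box bound by Sp1, and none of these 3 motifs overlaps another of them in this window. Capitals mark the 1 match to GGGCGG.
Apln upstream: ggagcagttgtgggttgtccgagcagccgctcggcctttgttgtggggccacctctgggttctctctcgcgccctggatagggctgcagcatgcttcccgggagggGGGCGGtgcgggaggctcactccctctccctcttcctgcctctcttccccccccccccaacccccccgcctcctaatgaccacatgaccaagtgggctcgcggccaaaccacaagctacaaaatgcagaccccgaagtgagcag
ACGTG and GCGTG had 0 matches in this window of Apln, while 38.6% of 32851 RefSeq windows of the same length held at least 1 of them and 32.7% held GGGCGG. Only these 250 bases were searched, so matches within the gene or farther from its start are not covered. Of the genes close to Apln, the windows of Adm (2 matches to GCGTG), Stc2 (2), Cdh23 (1), and Egln3 (1 match to ACGTG) held such letters. Of those close to Aplnr, Tie1 and Ackr2 held 0 and Itih5 held 1 match to GCGTG. No window was available for Ndufa4l2, Cd93, Pcdh12, or Aplnr itself, so these genes were not searched.

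Of the 30 other genes of the apelin pathway, which cover the second ligand, cleaving enzymes, signal transducers, and endothelial targets, 0 were called by edgeR in OIR against control (0.302% of all genes), in treated OIR against control (0.0171%), or in treated OIR against OIR (0%). DESeq2 on all 9 mice called 2 of the 30, Fgf2 and Gnai1, in OIR against control, where it called 4.5% of the genes it tested, and 0 in the other comparisons, where it called 1.2% and 0.0834%. At an unadjusted p below 0.05 in OIR against control, 8 were higher and 7 lower, against a background of 11.1% of all genes higher and 12.7% lower. In treated OIR against control 7 were higher and 3 lower, with 18.6% of all genes past this p in either direction. In treated OIR against OIR mice 3 were higher (background 2.39%) and 0 lower (2.30%). Their median log2 fold change was 0.06, 0.10, and 0.05 in these comparisons, next to 0.03, 0.01, and 0.01 for all genes. Without OIR mouse 6 and treated OIR mouse 2, edgeR called Fgf2 alone of the 30, in OIR against control. The counts at an unadjusted p below 0.05 were then 7 higher and 6 lower, 3 higher and 3 lower, and, in treated OIR against OIR mice, 2 higher and 1 lower. Of the 30 genes, 20 overlap another annotated gene, which leaves their counts uncertain.

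Among the enzymes that cleave apelin, Mme, the gene of neprilysin, which cuts apelin internally, had a log2 CPM of 4.79 in treated OIR mouse 2 and 0.96 to 1.44 in the other 5 mice with OIR. Its fold change in treated OIR against OIR was 2.27 on the log2 scale (standard error 0.93, unadjusted p = 0.0367, edgeR adjusted p = 0.9998) and -0.06 when mouse 2 and OIR mouse 6 were left out. Furin, a convertase of the precursor, and Klkb1, plasma kallikrein, had values of 0.23 and -0.49 in OIR against control.

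Of the transducers, the inhibitory G protein subunits had values of opposite sign. Gnai2 and Gnai3 had log2 fold changes of 0.36 and 0.60 in OIR against control, while Gnai1 was at -0.99 (standard error 0.31, edgeR adjusted p = 0.108), and each of the 3 separated control from OIR mice without overlap, as 15.9% of all genes did upward and 17.2% downward. Gna13, which links the receptor to endothelial transcription, was at 0.40 and Gnaq at 0.23. The genes that desensitize the receptor, Arrb1, Arrb2, and Grk2, had values of -0.54, -0.43, and -0.44, with OIR mice below control mice for all 3. In treated OIR against OIR mice Arrb1, the gene of β-arrestin 1, was higher by 0.52 (standard error 0.15, unadjusted p = 0.00819, edgeR adjusted p = 0.984), and Arrb2 and Grk2 were at -0.17 and -0.04. Agtr1a, the gene of a related angiotensin receptor, had 0 to 13 counts per mouse.

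Among the endothelial targets, Fgf2 had a log2 fold change of 2.46 in OIR against control (standard error 0.67, edgeR adjusted p = 0.0874) and its receptor Fgfr1 0.92 (standard error 0.30, edgeR adjusted p = 0.123). Fgf2 was at -0.52 in treated OIR against OIR mice (standard error 0.63, edgeR adjusted p = 0.9998), and at -1.35 (standard error 0.50, unadjusted p = 0.0240, edgeR adjusted p = 0.485) without the mice that stood apart. Fgf2 is also among the genes the study chose as upregulated on these mice. Foxo1, a transcription factor that restrains endothelial growth, was at 0.64 (standard error 0.11, edgeR adjusted p = 0.0456), which passed the adjusted p but not the fold of the rule, and Pfkfb3, an activator of glycolysis in sprouting endothelium, was at 0.61. Klf2 and Klf4 are known to be induced downstream of the receptor through Mef2 factors. In OIR against control Klf2 was at -0.61 (standard error 0.42, edgeR adjusted p = 0.404) and Klf4 at -0.58 (standard error 0.38, edgeR adjusted p = 0.386). Mef2c was at -0.93 (standard error 0.38, edgeR adjusted p = 0.177). Without the mice that stood apart these values were -0.37, -0.42, and -0.69. In treated OIR against OIR mice Klf4 was higher by 1.001 (standard error 0.38, unadjusted p = 0.0269, edgeR adjusted p = 0.9998), a value that was 0.51 without the mice that stood apart. Nos3, the endothelial nitric oxide synthase, differed by 0.09 and -0.01 in these comparisons.

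**Figure D4:**
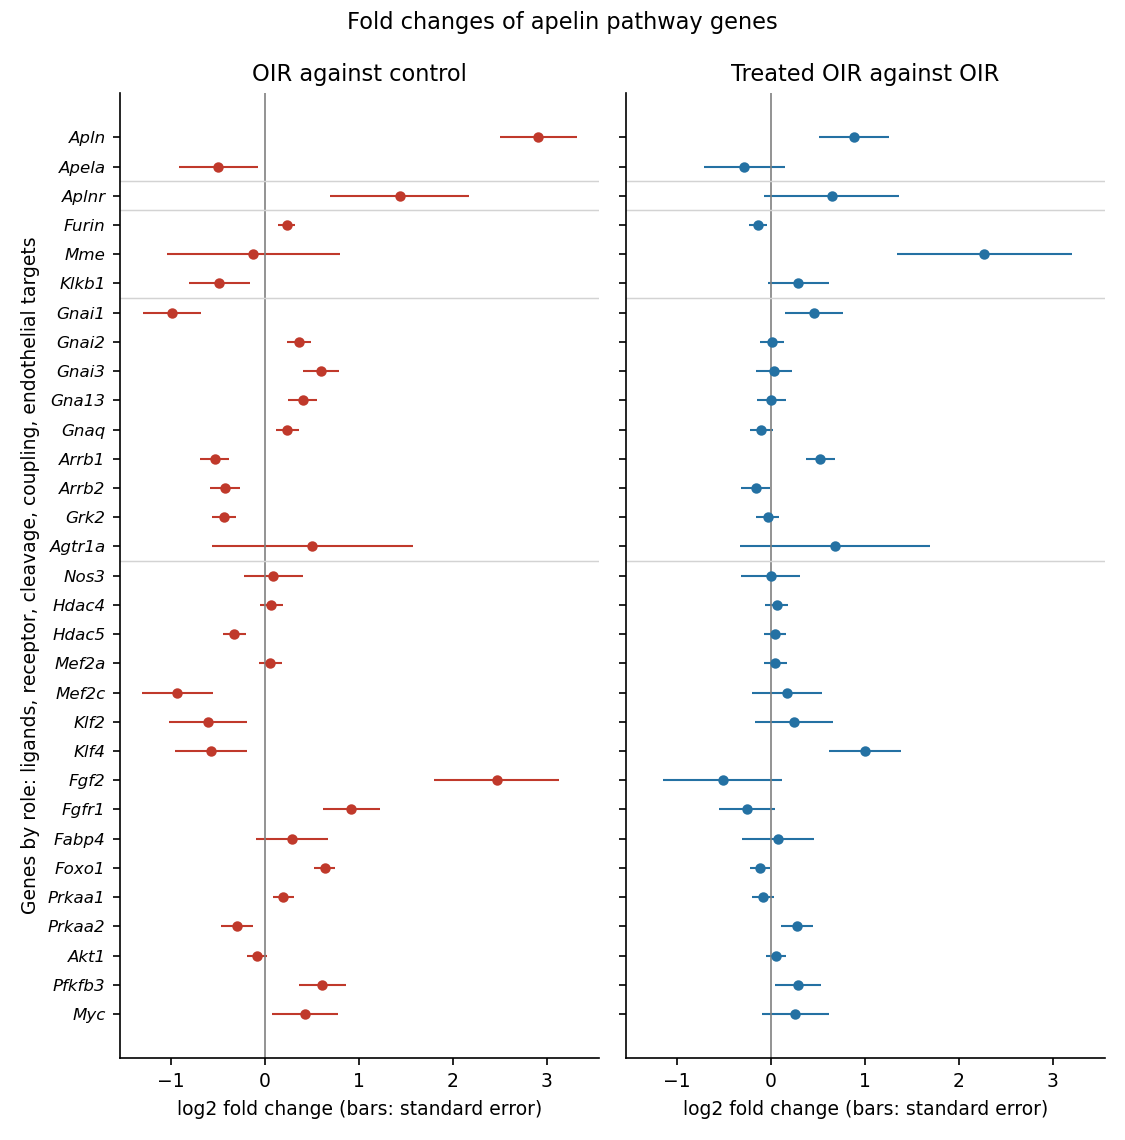
Log2 fold changes with standard errors for Apln, Aplnr, and the other apelin pathway genes except 1 that is not shown, ordered by role, in OIR against control (left) and treated OIR against OIR (right). Apln and Fgf2 have the highest values on the left, at 2.91 and 2.46, and Mme has the highest on the right, at 2.27, which is -0.06 without treated OIR mouse 2 and OIR mouse 6.

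Other tip cell genes were read beside Apln, and edgeR called 0 of 10 in OIR against control (0.302% of all genes), treated OIR against control (0.0171%), or treated OIR against OIR (0%). DESeq2 on all 9 mice called 1, 5, and 0 of them, beside 4.5%, 1.2%, and 0.0834% of all genes it tested. In treated OIR against OIR mice all 10 had values above 0, from 0.05 for Cxcr4 to 1.26 for Esm1, with a median of 0.62. The 2 with an unadjusted p below 0.05, named after their values were seen, were Unc5b (0.79) and Plvap (0.94), against a background of 2.39% of genes. Without OIR mouse 6 and treated OIR mouse 2 the median was 0.44 and Plvap alone had such a p. In OIR against control the 10 genes ranged from -0.03 for Plvap to 2.19 for Kcne3, with a median of 0.56 and 3 higher at an unadjusted p below 0.05 (5 without those mice), beside 11.1% of all genes. Kcne3 had 1 to 7 counts in control mice. All 10 had an unadjusted p below 0.05 and a higher value in treated OIR against control, with a median of 1.13, where 18.6% of all genes passed this p in either direction. Cxcr4 is 1 of the genes the study chose on these mice. Of the endothelial markers, 12 of 12 had values above 0 in treated OIR against OIR mice, with a median of 0.60, 0 at an unadjusted p below 0.05, and 0 called. Without OIR mouse 6 and treated OIR mouse 2 their median was 0.61, and 0 were called. In that fit 3 of 12 were higher at an unadjusted p below 0.05, beside 5.33% of all genes. The part of the endothelial markers, and that of the other marker genes given above, was not tested.

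The arterial and venous genes gave no called member. Among 3 venous genes the values in treated OIR against OIR were from -0.09 (Vwf) to 0.28 (Ephb4), and in OIR against control from -0.06 (Nr2f2) to 0.51 (Vwf). Among 5 arterial genes they were from -0.58 (Gja5) to 0.93 (Bmx) and from -1.22 (Bmx) to 0.12 (Gja5), with 0 to 16 counts of Bmx and 3 to 24 of Gja5 per mouse. Aplnr, at 0.65 (standard error 0.72) and 1.43 (standard error 0.74), had a higher value than each venous gene in both comparisons. The comparison with control also chose Aplnr, and its differences from the venous genes were not tested.

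Of the 15 HIF targets, 2 (Adm and Ndufa4l2) were called in OIR against control by edgeR (0.302% of all genes) and 0 in treated OIR against control (0.0171%) or treated OIR against OIR (0%). Without OIR mouse 6 and treated OIR mouse 2 it called 3, 4, and 0, where it called 590, 22, and 0 of all genes. DESeq2 on all 9 mice called 2, 3, and 0, beside 4.5%, 1.2%, and 0.0834% of all genes it tested. In treated OIR against OIR mice all 15 had values above 0, from 0.05 for Ndrg1 to 1.49 for Car9, with a median of 0.47, and 1 had an unadjusted p below 0.05, beside 2.39% of all genes. Without these mice the median was 0.05 and 0 of 15 had an unadjusted p below 0.05. Apln was at 0.88 and 0.50 in these same fits.

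Whether apelin and its receptor differed from 2 other ligand and receptor pairs was tested on the log2 difference between genes in each mouse, with treated OIR compared with OIR mice in 4 pairs. For Apln less Vegfa, OIR mouse 3 had -1.92, mouse 5 had -2.83, and mouse 6 had -2.22, while in the inhibitor group mouse 2 had -1.86, mouse 5 had -1.91, and mouse 10 had -1.88. Every treated OIR mouse was above every OIR mouse, narrowly at the nearest pair and by 0.44 in the mean (two-sided exact permutation test, p = 0.1, adjusted p = 0.4). Apln less Adm differed by 0.42 (exact permutation p = 0.5, adjusted p = 0.8). Aplnr less Kdr, the gene of VEGF receptor 2, was -2.95 in OIR mouse 3, -3.37 in mouse 5, and -5.40 in mouse 6, against -5.47 in mouse 2, -1.91 in mouse 5, and -2.07 in mouse 10 of the inhibitor group, a mean difference of 0.76 (exact permutation p = 0.6, adjusted p = 0.8). Aplnr less Calcrl, the gene of the adrenomedullin receptor, differed by 0.18 (exact permutation p = 0.8, adjusted p = 0.8). In both receptor pairs OIR mouse 6 and treated OIR mouse 2 were the lowest of the 6 mice. Without them the mean differences of the 4 pairs were 0.48, 0.49, 1.17, and 0.55, in the order given.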

How the data were processed

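Retinal RNA of 9 mice was sequenced, and each mouse was taken as 1 replicate. The authors deposited a table of raw, whole-number read counts, not normalized, that also lists each gene's length. CASAVA and HISAT are named in the submitters' processing notes, and the counting tool, annotation, and strandedness are not given in the sources used here. Positions in the table are identical to those of GENCODE M21 for 98.3% of the 54409 genes both hold, and GRCm38 coordinates are used. Total counts were 16028731 to 27213184 per mouse. For Apln and Aplnr counting error is smaller than the spread among 3 mice, while a few genes named as list extremes have few counts, as stated beside them.

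Counts were fitted with edgeR 4.0.16 in R 4.3.3, with TMM factors, the default filter by group (17540 genes kept), and 1 mean per group over all 9 mice in the quasi-likelihood model. P-values were adjusted over all genes (Benjamini-Hochberg). Log2 CPM used a prior count of 2. Alternatives used DESeq2 1.42.0, limma 3.58.1, other scalings and filters, sex, and leaving out each mouse. Leaving out OIR mouse 6 and treated OIR mouse 2 together was chosen after seeing the data. The fit and the permutation test were tested on simulated data. The members, gene lists, and tests were chosen with earlier results of these data known. The genes named are the 2 members, the apelin pathway genes, the highest and lowest of each other list, the ligand and receptor comparators, and the 5 closest profiles per member with a mean log2 CPM of at least 1. RefSeq promoter windows were used for Apln, Adm, Cdh23, Stc2, Egln3, Tie1, Ackr2, and Itih5. Of the 30 other pathway genes, 1 enters the counts but is not reported here by name. Protein sequences were not used here. Figures were drawn with matplotlib 3.10.9.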

Additional observations from a re-analysis of the deposited data

How the results depend on the processing

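Between treated OIR and OIR mice, the log2 fold changes of Apln and Aplnr kept their direction and stayed short of an adjusted p of 0.05 in all alternatives. With each mouse left out in turn they ranged from 0.53 to 1.10 for Apln and from 0.21 to 1.18 for Aplnr, and with other tools, scalings, and filters from 0.61 to 0.89 and from 0.64 to 1.08, with limma-voom at 0.61 and 1.08. Against control, the values of both members kept their direction, while the call of Apln was lost in both comparisons with sex as a covariate, and in treated OIR against control also with edgeR on the 2 groups, DESeq2's size factors, and crystallin genes removed. Aplnr was called in both with DESeq2 on the 2 groups (DESeq2 adjusted p of 0.00706 and 0.0440). It was also called in both with OIR mouse 6 and treated OIR mouse 2 left out (edgeR adjusted p of 0.00456 and 0.00649). Those mice had the lowest Aplnr among the mice with OIR and were left out after seeing the data. The comparisons with control also chose Aplnr, so these calls are a description only. The per-mouse differences between treated OIR and OIR mice turned with treated OIR mouse 2. With single mice left out they ranged from -0.84 to 1.23 for Apln per Aplnr, from -0.52 to 0.83 for Apln less the endothelial score, and from -0.52 to 0.32 for Aplnr less that score, and with OIR mouse 6 and treated OIR mouse 2 both left out they were -0.21, -0.0082, and 0.20. The cause was not tested.

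The number of called genes over all 17540, which sets the background, depended on the method. For OIR against control (53 in the fit reported), treated OIR against control (3), and treated OIR against OIR (0), it was 679, 165, and 14 with DESeq2 on all 9 mice, 988, 122, and 52 with DESeq2 on the 2 groups, 260, 13, and 1 with no filter, and 822, 184, and 1 with limma-voom. Fitted to the 2 groups, edgeR gave 771 and 0 for the comparisons with control, and with sex as a covariate 0 and 0. Total counts alone gave 14 for OIR against control. DESeq2's size factors, and crystallin genes removed, gave 0 for treated OIR against control. With each mouse left out the counts ranged from 0 to 901, from 0 to 6, and from 0 to 0. For OIR against control 901 was without treated OIR mouse 2, 98 without treated OIR mouse 10, and 0 without any of the other 7. For treated OIR against control 2, 3, and 6 were without OIR mouse 6 and treated OIR mice 2 and 10, and 0 without any of the other 6. In both, the call of Apln held without treated OIR mouse 2 or 10 and was lost without any of the other 7. With both mice left out they were 590 and 22 against control. No paired analysis was possible because the groups compared share at most 1 label number, and the numbers name separate animals.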
